A study of Macaca mulatta with 12 samples.

Results

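NQO2 and a set of antioxidant enzymes were followed across the 6 layers of the lateral geniculate nucleus (LGN) of rhesus macaques after monocular deprivation. The LGN is the thalamic nucleus that relays signals from the retina to the visual cortex, and each of its layers is driven by 1 eye. The set named 10 genes, NQO1, NQO2, SOD1, SOD2, CAT, GPX4, PRDX1, PRDX3, TXN and HMOX1, and its members were chosen as the probe sets that carry exactly 1 of these symbols. NQO2 was picked for its low level in the deprived layers of these same arrays, so its deprivation values are given as a description and were not tested. Of the 10 genes, 9 had such probe sets, 15 probe sets of 22283 and 9 genes of 11963, and 12 of the 15 passed the filter on low values. The 4 probe sets that name SOD2 also name a second gene, so SOD2 was not analysed here.

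Total RNA of single layers was measured on 12 Affymetrix arrays of human design, 1 array for each layer in each hemisphere. The deprived group held layers 2, 3 and 5 of the ipsilateral side and layers 1, 4 and 6 of the contralateral side (n = 6), and the non-deprived group held the same layers of the opposite sides (n = 6). All 12 arrays came from monocularly deprived animals, so the non-deprived layers are not those of untreated animals. Layers 1 and 2 are magnocellular (n = 4) and layers 3 to 6 parvocellular (n = 8), the classes of large and small relay neurons. The age, the manner of deprivation, the number of animals and which layers came from 1 animal are not given in the sources used here, so the spread between layers may be partly technical, and wherever layers shared an animal the p-values understate the uncertainty between animals. Human probes can bind macaque transcripts unequally, so no difference in level between probe sets is given. Levels of different probe sets were used together in the floor and filter on low values and in the trend of the fit. They were also used to keep 1 per gene and to sum cell type markers on each array.

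NQO1 and NQO2 are flavoproteins that reduce quinones to hydroquinones and so bypass the reactive semiquinone. NQO2 is the less usual enzyme of the pair, since it takes its electrons from dihydronicotinamide riboside rather than from NADH or NADPH. Superoxide dismutases turn superoxide into hydrogen peroxide, which catalase, glutathione peroxidases and the peroxiredoxins with thioredoxin remove, and the transcription factor NRF2 induces many of these genes under oxidative stress.

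The 12 arrays had nearly equal trimmed means, and their median intensity ranged from 411.5 to 666.5. GAPDH control probes at the 3' and 5' ends of the transcript gave an intensity ratio, a measure of RNA degradation, of 11.0 on the deprived layer 5, 9.38 on the deprived layer 2 and 2.21 to 5.65 elsewhere. Each of the 9 neuronal marker genes measured passed the filter, among them SNAP25, SYT1 and SLC17A6, the vesicular glutamate transporter of thalamic relay neurons. NEFM, a neurofilament subunit abundant in large neurons, was higher in magnocellular than in parvocellular layers (log2 difference 0.83, adjusted p = 0.00295 by limma).

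NQO2, with a single probe set, had a lower scaled intensity in the deprived than in the non-deprived sample of every layer. In the magnocellular layers it was 7343.8 against 24374.1 in layer 1 and 7565.8 against 21074.1 in layer 2, deprived against non-deprived. In the parvocellular layers it was 5523.1 against 6980.2 in layer 3, 5010.1 against 15906.1 in layer 4, 3902.9 against 8556.7 in layer 5 and 4513.6 against 7407.9 in layer 6. Over all layers the deprived and non-deprived values overlapped, since both deprived magnocellular samples lay above the non-deprived layer 3. The ratio was widest in layers 1 and 4, 3.32-fold and 3.17-fold lower when deprived, and narrowest in layer 3, 1.26-fold lower. Each such pair also sets opposite hemispheres against each other.

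The deprived samples averaged 5643.2 ± 1503.9 and the non-deprived samples 14050 ± 7531.9 (SD, n = 6 each). With cell class and hemisphere in the fit, the log2 difference was -1.18 ± 0.20 (SE), 2.26-fold lower in deprived layers, a value that chose the gene and therefore carries no test. It was -1.38 in ipsilateral arrays alone, -0.97 in contralateral arrays alone and -0.98 with the deprived layers 2 and 5 both left out, and lay between -1.30 and -1.04 when any single array was left out. Within a hemisphere the deprived and non-deprived samples come from different layers, so deprivation and layer cannot be told apart in the ipsilateral and contralateral values. The log2 deprivation difference in magnocellular minus that in parvocellular layers was -0.64 ± 0.39, and that in ipsilateral minus that in contralateral arrays was -0.41 ± 0.39, both again without a test. As a description that again splits the samples by the contrast that chose the gene, the means of the 4 kinds of layer ran downward from non-deprived magnocellular (22724 ± 2333.5, n = 2) through non-deprived parvocellular (9712.7 ± 4182.2, n = 4) and deprived magnocellular (7454.8 ± 157.0, n = 2) to deprived parvocellular (4737.4 ± 692.4, n = 4). The middle pair did not differ beyond its spread, since the non-deprived layers 3 and 6, at 6980.2 and 7407.9, lay near the deprived layers 1 and 2.

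**Figure D1:**
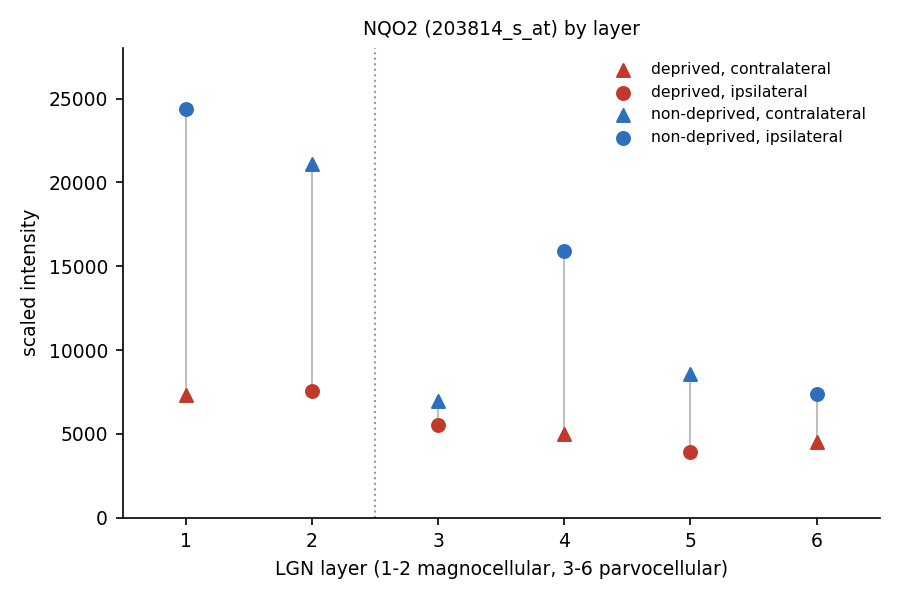
Scaled intensity of NQO2 (vertical axis, from 0) in LGN layers 1 to 6 (horizontal axis), 1 point per array, red for deprived and blue for non-deprived layers, circles for ipsilateral and triangles for contralateral samples, with a grey line joining the samples of a layer and a dotted line between magnocellular and parvocellular layers. The deprived point is the lower one in each of 6 layers, and the non-deprived magnocellular layers hold the highest values, 24374.1 and 21074.1.

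The cell class comparison, which did not choose the gene, asked whether NQO2 differs between magnocellular and parvocellular layers. NQO2 was higher in magnocellular layers, 15089 ± 8918.5 (SD, n = 4) against 7225.1 ± 3843.7 (n = 8), a 1.98-fold difference (log2 0.99 ± 0.21, adjusted p = 0.0373 by limma). It was the 1 member probe set of 12 called, where 0.72% of the 11105 probe sets tested were called. Over all layers, magnocellular and parvocellular values of NQO2 did overlap.

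The NQO2 difference by cell class lay between 0.89 and 1.11 in every alternative run, but the call was lost in 7 of 10 other settings (adjusted p up to 0.889, in the 6 ipsilateral arrays alone) and without any of 8 single arrays. These 8 were the deprived layers 1 (adjusted p = 0.141), 2 (0.0592), 5 (0.0612) and 6 (0.0672) and the non-deprived layers 1 (0.102), 2 (0.160), 3 (0.0813) and 5 (0.0742), by limma. Between hemispheres NQO2 had a log2 difference of 0.19 ± 0.20 (ipsilateral minus contralateral, adjusted p = 0.589), which turned to -0.12 after median centring.

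Of the other 8 genes, none of 11 probe sets was called by deprivation in limma, where 0.063% of all probe sets tested were called, 7 of 11105. 1 of the 11 had an unadjusted p under 0.05, against 12% of all probe sets. Their log2 differences ran from -0.50 to 0.73 with a median of 0.17, beside a median of 0.03 over all probe sets, and 7 were positive and 4 negative. Median centring of the arrays moves every deprivation difference by -0.14.

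SOD1, the cytosolic copper-zinc superoxide dismutase, was the probe set with the unadjusted p under 0.05. In magnocellular layers its intensity was 22692.3 deprived against 23963.7 non-deprived in layer 1 and 18871.2 against 26003.8 in layer 2. In parvocellular layers it was 15312.3 against 22731.2 in layer 3, 15541.0 against 19109.5 in layer 4, 11250.7 against 26983.0 in layer 5 and 17200.0 against 21703.6 in layer 6. The deprived sample was the lower one in 6 of 6 layers, by 1.06-fold in layer 1 and by 2.40-fold in layer 5, and the groups overlapped because the deprived layer 1 lay above the non-deprived layers 4 and 6. Each of these pairs also sets opposite hemispheres against each other. The mean log2 difference was -0.76 in layers 2, 3 and 5, deprived ipsilaterally, and -0.24 in layers 1, 4 and 6, deprived contralaterally. By hemisphere SOD1 had a log2 difference of -0.26 ± 0.13 (ipsilateral minus contralateral, adjusted p = 0.263 by limma). Group means were 16811 ± 3840.9 and 23416 ± 2886.8 (SD, n = 6 each), a log2 difference of -0.50 ± 0.13 that did not pass (adjusted p = 0.147 by limma, and 0.116 to 0.789 over the alternatives). The deprived layer 5, with the lowest SOD1 value, was the array with the highest GAPDH ratio, and the difference was -0.43 without it.

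Cell type markers were also compared by deprivation, where 46.3% of all probe sets tested had negative differences. Median centring moves each difference by -0.14, so positive markers nearer 0 than that, such as MBP (0.08) and SOX10 (0.04), depend on the scaling. All 9 neuronal markers tested had negative deprivation differences (median -0.18). Their summed intensity was 385848 to 496467 in deprived against 502254 to 606413 in non-deprived samples, which did not overlap. The sum gives more weight to bright probe sets such as SYT1 than to fainter ones such as ELAVL4. Of all single probe sets tested, 0.684% did not overlap by deprivation, and the share for sums of several genes was not computed. All 11 oligodendrocyte markers tested were positive (median 0.37), as were 8 of 9 astrocyte, 5 of 5 microglial, 5 of 6 endothelial and 2 of 2 blood markers, and no marker was called. Summed intensities overlapped for each of these, at 74994 to 162961 against 71855 to 118274 for oligodendrocytes and 116818 to 172544 against 89776 to 153911 for astrocytes. Their summed ranges were 7708.6 to 15111.3 against 7036.9 to 9339 for microglia, 4345 to 7871.8 against 4261.8 to 6849.9 for endothelium and 2832.2 to 13904.7 against 3626.4 to 6145 for blood. Their part in the NQO2 and SOD1 values was not tested, and in samples of a whole layer fewer cells of a type and less RNA per cell cannot be told apart. By cell class, 58.5% of all probe sets tested had negative differences, and median centring moves each difference by 0.09. In magnocellular layers 7 of 9 neuronal markers were higher (summed 479979 to 606413 against 385848 to 538663), with ELAVL4 (0.00021) and STMN2 (0.0061) near 0. Of 11 oligodendrocyte markers 7 were lower, and MBP (-0.64) and MAG (-1.26), myelin proteins, were called. NEFM (0.83) was called as higher. Among 9 astrocyte markers 5 were higher and 4 lower (median 0.05), and AGT was called as lower (-1.07). The part of these markers in the NQO2 cell class difference was likewise not tested.

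Where a gene has several tested probe sets they are called the first and the second, in the order of the identifiers that head the plots. NQO1, the closest relative of NQO2, had 3 probe sets. The first tested had a lowest, median and highest intensity of 1383.5, 2055.2 and 2876.0 in deprived and of 1397.1, 1605.1 and 2027.6 in non-deprived layers. For the second these were 647.2, 810.5 and 1185.3 against 892.6, 990.7 and 1132.1. The groups overlapped on both, and the probe sets differed in sign, with log2 differences of 0.27 ± 0.17 (adjusted p = 0.580) and -0.25 ± 0.19 (adjusted p = 0.650, limma). Across the 12 arrays they correlated at r = 0.05, so neither can be taken as the level of NQO1 on its own. The remaining probe set lay below the filter, at 28.7 to 132.0.

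Among the enzymes that remove peroxide, GPX4, which reduces lipid hydroperoxides in membranes, had intensities of 10381.5, 11021 and 16176.2 (lowest, median, highest) in deprived and 11097.8, 14263 and 18036.1 in non-deprived layers, a log2 difference of -0.22 ± 0.14 (adjusted p = 0.568). PRDX1, a cytosolic peroxiredoxin, had 14580.4, 19099 and 23689.7 against 12351.1, 18983 and 20941.4, a difference of 0.11 ± 0.16 that turned to -0.028 after median centring. CAT, the peroxisomal catalase, had 719.7, 1430.6 and 1722.4 against 779.5, 1002 and 2187.8 (0.18 ± 0.22). The groups overlapped for each of these genes. By 95% intervals, the deprivation difference of GPX4 lay between -0.51 and 0.07, that of PRDX1 between -0.23 and 0.44 and that of CAT between -0.28 and 0.63. The 2 other CAT probe sets lay below the filter and correlated with the first at r = -0.11 and 0.18.

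PRDX3, the mitochondrial peroxiredoxin, had 2 tested probe sets with nearly the same deprivation difference, 0.26 ± 0.24 each (adjusted p = 0.725 and 0.719), although they correlated at r = -0.22 over the arrays. On the first the deprived layers held 672.6, 914.4 and 1422.7 (lowest, median, highest) and the non-deprived layers 339.8, 861.1 and 1369.9. On the second the deprived layers held 484.2, 777.0 and 1527.2 and the non-deprived layers 517.0, 683.5 and 1200.7. The 3 highest values of that second probe set, in deprived layers 2 and 5 and non-deprived layer 4, came from the 3 arrays with the highest GAPDH ratios, and its difference was -0.020 without the 2 highest.

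TXN encodes thioredoxin, the small protein that recharges the peroxiredoxins, and HMOX1 encodes the inducible heme oxygenase, a target of NRF2. TXN on its first probe set had 10149.7, 16317 and 22213.3 in deprived and 11554.5, 19702 and 27172.5 in non-deprived layers (-0.16 ± 0.20, adjusted p = 0.811). The second probe set had 244.2, 907.8 and 1420.5 against 97.4, 415.4 and 1151.9 (0.73 ± 0.37, adjusted p = 0.451), the opposite sign. HMOX1 had 600.8, 792.7 and 1151.5 against 433.6, 718.4 and 1285.5 (0.17 ± 0.22, adjusted p = 0.824 by limma). The groups overlapped on these 3 probe sets, and the TXN pair correlated at r = 0.39.

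**Figure D2:**
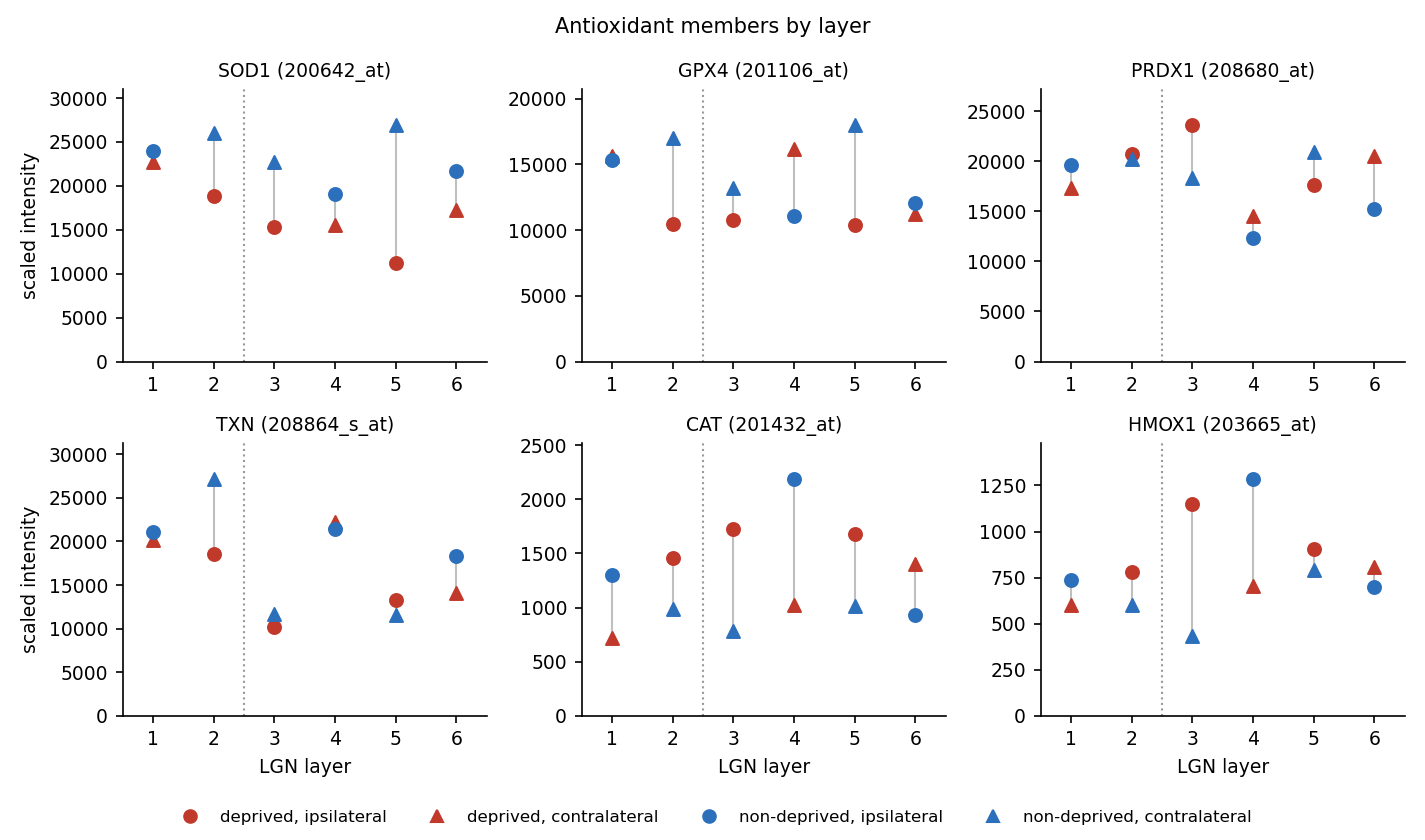
Scaled intensity (vertical axes, from 0) of SOD1, GPX4, PRDX1, TXN, CAT and HMOX1 in LGN layers 1 to 6, 1 point per array, red for deprived and blue for non-deprived, circles for ipsilateral and triangles for contralateral samples. The deprived SOD1 point is the lower one in 6 of 6 layers, while for the other genes the order of the points varies from layer to layer.

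**Figure D3:**
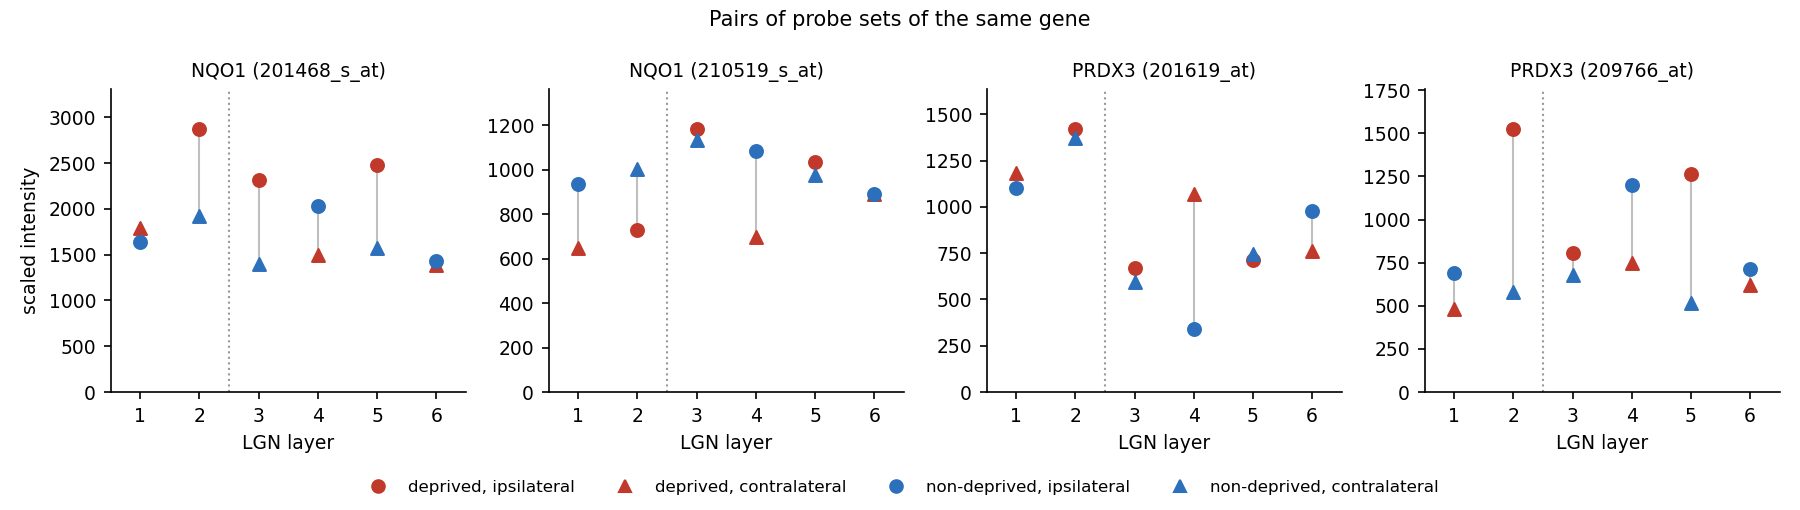
Scaled intensity (vertical axes, from 0) of the 2 tested probe sets of NQO1 and of PRDX3 in LGN layers 1 to 6, with colours and shapes for group and hemisphere as given in the legend. The probe sets of a gene do not follow each other, with r of 0.05 for NQO1 and -0.22 for PRDX3 over 12 arrays.

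By cell class, the other 11 probe sets were not called, and 8 of the 12 member differences were higher in magnocellular layers, with a median of 0.21 beside -0.07 over all probe sets. PRDX3 on its first probe set had 1100.7, 1180.9, 1369.9 and 1422.7 in magnocellular and 339.8, 729.8 and 1068.4 (lowest, median, highest) in parvocellular layers. These did not overlap, as was so for 1.5% of all probe sets tested, and the log2 difference was 0.85 ± 0.26 (adjusted p = 0.146 by limma). The other PRDX3 probe set showed -0.09 ± 0.25, with a sign that depended on the setting (0.035 after quantile normalization). TXN had 445.1, 1151.9, 1226.6 and 1420.5 against 97.4, 379.3 and 940.7 on its second probe set (1.31 ± 0.39, adjusted p = 0.145), and 18506.4, 20138.0, 21112.1 and 27172.5 against 10149.7, 13695 and 22213.3 on its first (0.54 ± 0.21, adjusted p = 0.254). Without the non-deprived layer 6, the first PRDX3 (0.98, adjusted p = 0.0456) and the second TXN probe set (1.57, adjusted p = 0.0232) were called as well, where the count over all probe sets was 188 in place of 80.

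SOD1 was 22883 ± 3002.1 in magnocellular (n = 4) and 18729 ± 4974.8 in parvocellular layers (n = 8), with overlap (0.33 ± 0.14, adjusted p = 0.287, limma). GPX4 and PRDX1 had differences of 0.19 and 0.14, CAT of -0.23 and HMOX1 of -0.26, and the NQO1 probe sets again had opposite signs (0.23 and -0.25). Adjusted p-values of these ranged up to 0.740.

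**Figure D4:**
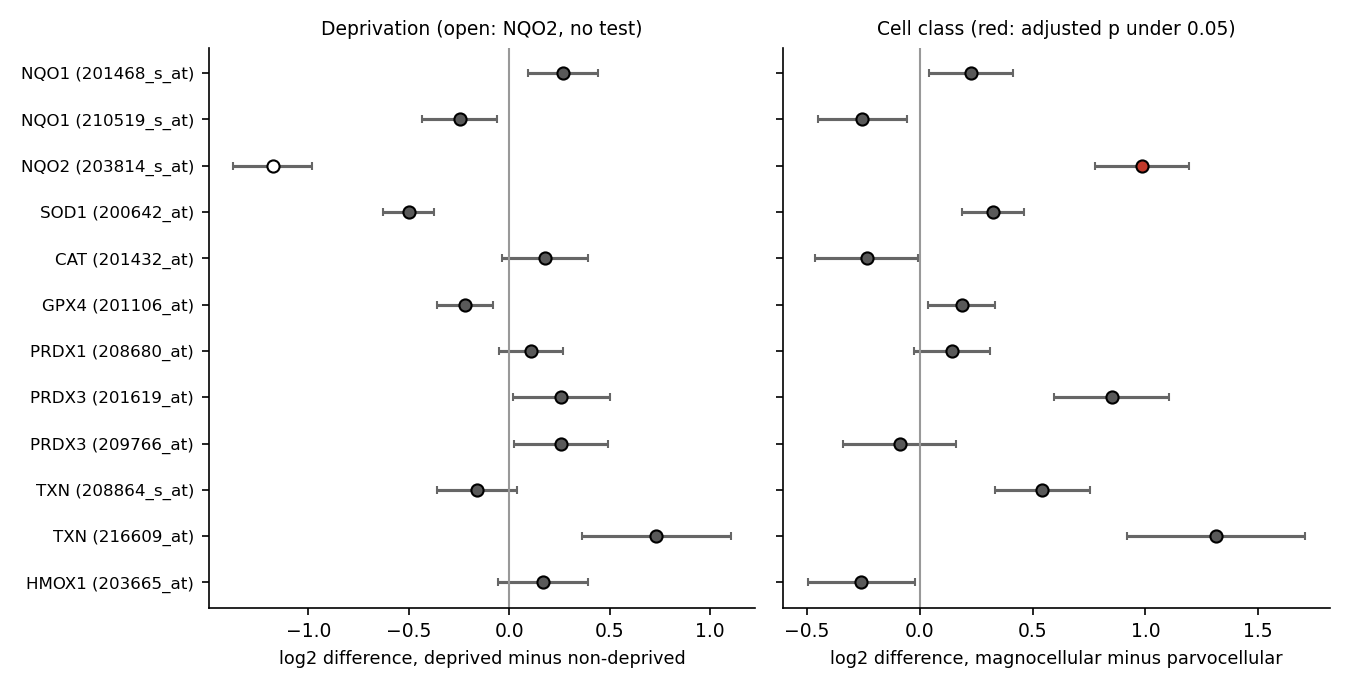
Log2 differences (horizontal axes) of the 12 tested member probe sets by deprivation (left) and by cell class (right), with bars of 1 SE from limma. NQO2 stands at -1.18 on the left, drawn open because it was chosen on this contrast, and at 0.99 on the right, drawn red as the probe set called.

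Between hemispheres 0 of 12 member probe sets were called in limma, where 0.108% of all probe sets were, and 6 of the 12 had an unadjusted p under 0.05, against 20.1% of all. CAT was 1545.6 ± 425.9 ipsilaterally and 988.1 ± 241.4 contralaterally (SD, n = 6 each; 0.63 ± 0.22, adjusted p = 0.141). PRDX3 on its second probe set was 1033 ± 345.8 against 604.6 ± 99.3 (0.72 ± 0.24, adjusted p = 0.132), and the difference was 0.32 with the GAPDH ratio as a covariate. GPX4 was 11690 ± 1889 against 15228 ± 2540.7 (-0.38 ± 0.14, adjusted p = 0.161). The largest difference was that of the second TXN probe set, 514.7 ± 475.2 against 825.4 ± 369.2 (-0.97 ± 0.37, adjusted p = 0.172 by limma). The ipsilateral arrays held the 3 highest GAPDH ratios, and groups overlapped for each gene. Without the non-deprived layer 6, CAT (0.79, adjusted p = 0.0306) and the second TXN probe set (-1.31, adjusted p = 0.0270) were called, in a fit that called 851 probe sets in place of 12. Median centring moves each hemisphere difference by -0.32.

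Whether the deprivation difference varied with cell class or hemisphere was tested for the 11 probe sets other than NQO2. None was called in either interaction by limma, where 0% of all probe sets were called, and 0 and 1 of the 11 had an unadjusted p under 0.05, against 8.73% and 6.57% of all. Without the deprived layer 1, the interaction with cell class called 208 probe sets, none of them one of these 11. The largest cell class interaction was that of CAT (-0.49 ± 0.45, adjusted p = 0.775), and SOD1 had 0.35 ± 0.27. By hemisphere, which is also the contrast of layers 2, 3 and 5 with layers 1, 4 and 6, the first TXN probe set had -0.84 ± 0.35 (adjusted p = 0.704), the first NQO1 probe set 0.66 ± 0.31 and PRDX1 0.61 ± 0.29.

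Other genes of the same pathways were taken from 5 lists of 79 genes in all, of which 60 were tested, 13 had no probe set naming them alone and 6 lay below the filter. None of the 60 was called in limma by deprivation, cell class or hemisphere. Of the 60 genes, 12, 2 and 6 had an unadjusted p under 0.05, against 12%, 14.6% and 20.1% of all probe sets tested. As a share of the 60 this was higher than over all probe sets by deprivation and lower by cell class and by hemisphere, with no test of the lists. By deprivation 37 of 60 differences were negative with a median of -0.07, beside 46.3% negative and a median of 0.03 over all probe sets tested.

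Among 8 other superoxide and peroxide enzymes (4 negative, median 0.01), GPX1, the main cytosolic glutathione peroxidase, was 1691.5 ± 511.6 in deprived and 2412.2 ± 603.0 in non-deprived layers (-0.54 ± 0.19, adjusted p = 0.273). In the thioredoxin and glutaredoxin system 10 of 14 were negative (median -0.13), with GLRX3 at -0.37 ± 0.14 and TMX1, a thioredoxin-like protein of the endoplasmic reticulum, at 0.48 ± 0.19. Of 12 genes of glutathione synthesis and transfer 7 were negative (median -0.02). MGST3, a microsomal glutathione transferase, had the smallest p of all 60, at 28573 ± 4856.7 against 43495 ± 8046.9 (-0.60 ± 0.15, adjusted p = 0.147 by limma). GSTO1, an omega-class transferase, had -0.38 ± 0.17.

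NRF2 regulators and targets gave 12 negative differences of 19 (median -0.08), with NFE2L1, a relative of NRF2, at -0.29 ± 0.12 and TALDO1, of the pentose phosphate pathway, at -0.32 ± 0.14. Of 7 other quinone and carbonyl reductases 4 were negative (median -0.07). In that list CRYZ, a quinone reductase unrelated to NQO2 in sequence, was 809.6 ± 86.5 in deprived and 588.1 ± 84.4 in non-deprived layers (0.47 ± 0.20, adjusted p = 0.373, limma), and TP53I3 had -0.40 ± 0.18.

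By cell class the list medians were -0.31 for the superoxide and peroxide enzymes, 0.15 for the thioredoxin and glutaredoxin system, 0.13 for glutathione synthesis and transfer, -0.02 for NRF2 regulators and targets and 0.08 for the reductases. GPX1 and GPX2 lay at -0.50 and -0.56, and 6 of the 8 genes of the first list were negative. TXNL1 and MSRA, a methionine sulfoxide reductase, had 0.30 each, GCLM, the regulatory subunit of glutamate-cysteine ligase, 0.37, and GSTM3 0.25. FTL, the ferritin light chain, had -0.38, RBX1 0.32, TP53I3 0.35 and CYB5R1 0.43, with adjusted p-values of these named genes from 0.262 to 0.596.

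**Figure D5:**
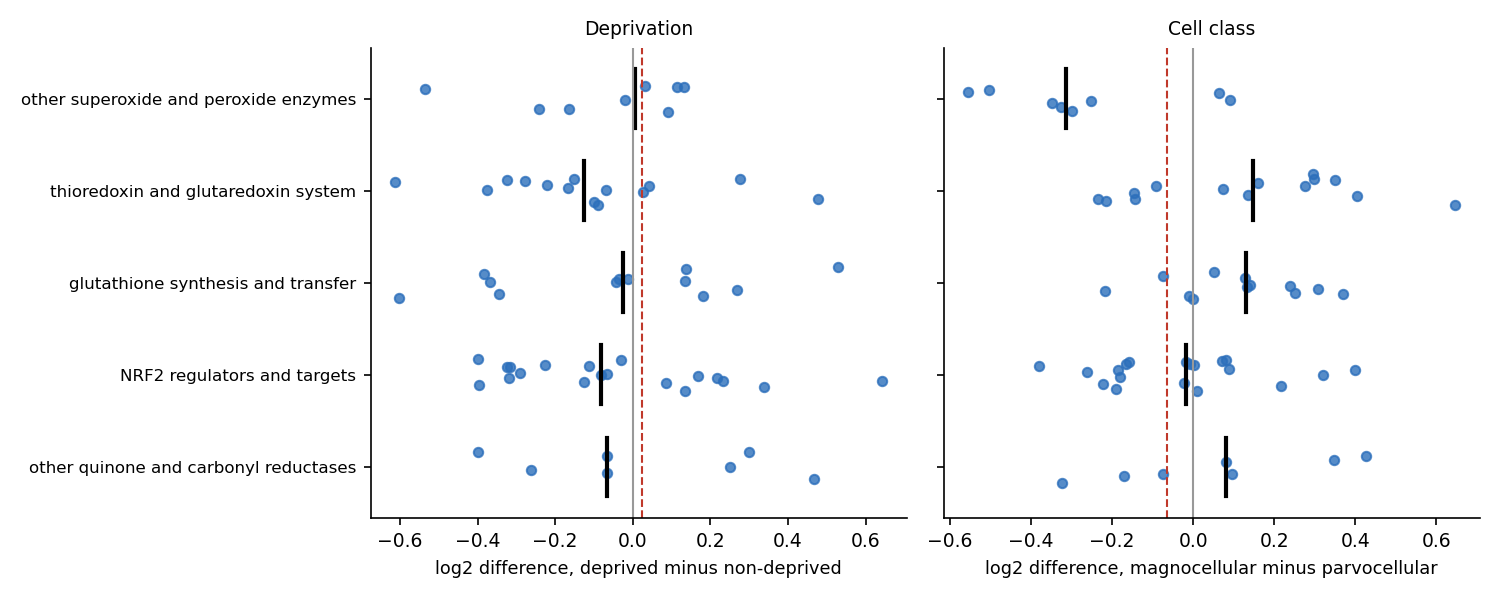
Log2 differences (horizontal axes) of 60 other antioxidant genes in 5 lists by deprivation (left) and by cell class (right), 1 point per gene, with a black bar at the list median and a red dashed line at the median of all probe sets tested, 0.03 and -0.07. Points spread to both sides of 0 in every list, and no gene was called.

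Genes whose pattern was most like that of NQO2 were ranked by Pearson r over the 12 arrays among 9842 probe sets that name 1 gene, as a description. ESYT1 had r = 0.93, CRH, the corticotropin-releasing hormone, 0.90, NRIP3 0.90, ATP5MG, a subunit of the mitochondrial ATP synthase, 0.90 and RPN2 0.86. Levels of ESYT1 were 3032.3 ± 554.3 in deprived and 4690.4 ± 1792.2 in non-deprived layers, and those of CRH 990.1 ± 369.2 and 1782 ± 679.5 (SD, n = 6 each). The arrays also differ by deprivation and cell class, and the part of these differences in the ranking was not tested. With the group means removed, by the terms for deprivation, cell class and hemisphere, these 5 genes had r of 0.78, 0.70, 0.51, 0.70 and 0.90 in the same order. The 5 leading genes were then OLFM1, DRC4, SRRT, WBP2 and SURF1, the last at 0.92, and 0 of the first 5 were among them. Of the members, SOD1 (r = 0.68) and the first TXN probe set (0.59) were closest to NQO2 over the arrays, whereas HMOX1 (0.79) and CAT (0.77) were closest after the group means were removed, when SOD1 had -0.19. The non-deprived layer 4 held the highest value of HMOX1 (1285.5), of CAT (2187.8) and, among parvocellular samples, of NQO2 (15906.1). The part of that array in these r was not tested.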

How the data were processed

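The deposited table holds 1 intensity per probe set and array on a linear scale; the software and any detection calls behind it are not given in the sources used here. Its 2%-trimmed means differed by 0.010%, within a tolerance of 5%, so it was used as deposited. Gene names came from the platform annotation table. The pooled 20th percentile (110.8) served as a floor before log2 was taken. The 11105 non-control probe sets whose mean log2 value reached the median (8.92) were tested in limma 3.58.1 (R 4.3.3; lmFit, then eBayes allowing a trend) by two-sided tests, with p-values adjusted over all of them after Benjamini-Hochberg; called means adjusted p under 0.05. Deprivation, cell class and hemisphere were additive terms over 12 arrays, with 8 residual degrees of freedom, and each interaction was added to that fit. The deprivation term that chose NQO2 and the cell class term share 1 estimate of the residual spread. For lists, 1 probe set per gene, that of the highest mean, was kept.

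Members, lists and tests were chosen with earlier results of these data known. Named genes are every member, the 2 genes of smallest p per list for deprivation and for cell class, any called, the 5 most like NQO2, and markers. Alternatives were quantile normalization, median centring, no floor, no filter, no trend, no hemisphere term, the layer number as a block, the GAPDH ratio as a covariate, leaving out the 2 arrays of its highest values, each hemisphere alone, parvocellular layers alone, and leaving out each array.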

Additional observations from a re-analysis of the deposited data

Results flagged for a closer look

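Of 30 groups of 6 samples checked (15 probe sets, deprived and non-deprived), 3 held a sample far from the others of its group. Chance marks about 1 in 20 groups of normal values from 1 population, whereas these groups mix layers and hemispheres on a linear scale. CAT on its tested probe set was 2187.8 in the non-deprived layer 4, where the other non-deprived layers held 779.5 to 1298.9. PRDX3 on its second probe set was 1200.7 in that same sample, with 517.0 to 713.6 in the others. NQO1 on the probe set below the filter was 132.0 in the deprived layer 2 against 31.7 to 52.4. The non-deprived layer 4 and the deprived layer 2 were among the 3 arrays of highest GAPDH ratio, at 5.65 and 9.38.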

How the results depend on the processing

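Of 804 alternative values for 36 member differences, 762 stayed the same, 23 changed sign, 15 lost a call and 4 gained one. Staying the same meant keeping direction and side of the threshold. For the untested NQO2 deprivation difference, 24 of these values, it meant lying within 1 within-group SD of the main value. Leaving out the filter, the trend or the hemisphere term changed the SE of a difference but not the difference, so no sign could change there. Only the NQO2 difference by cell class was called in the main fit, so no other could lose a call. The cause was not tested for any of the changes. The count of members called by cell class was 0 in place of 1 after quantile normalization, after median centring, without the filter, without a trend, with the GAPDH ratio as a covariate, without the 2 arrays of its highest values and in ipsilateral arrays alone. Leaving out 1 array gave 0 to 3 for cell class and 0 to 2 for hemisphere, the highest without the non-deprived layer 6, and the deprivation and interaction counts stayed 0 in every setting run.

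These signs changed. By deprivation, in contralateral arrays alone the first NQO1 probe set was -0.063, PRDX1 -0.19 and the first TXN probe set 0.26; PRDX1 was -0.028 after median centring and the second PRDX3 probe set -0.020 without the 2 arrays of highest GAPDH ratio. By cell class the second PRDX3 probe set was 0.035 after quantile normalization and 0.086 in ipsilateral arrays alone, and -0.33 to 0.071 with 1 array left out. By hemisphere, after quantile normalization the second NQO1 probe set was -0.10, PRDX1 0.12 and the first TXN probe set 0.12, and after median centring that NQO1 probe set was -0.17 and NQO2 -0.12. PRDX1 was 0.078 with the GAPDH ratio as a covariate, and the first TXN probe set 0.037 without the 2 arrays of its highest values and 0.078 in parvocellular layers alone. With 1 array left out these ran from -0.15 to 0.044 for PRDX1 and from -0.14 to 0.13 for TXN.

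Deviations of same-numbered layers from the mean of their deprived or non-deprived group correlated at -0.25 to -0.0016, 0 of 6 above 0.1. The samples of a layer come from opposite hemispheres and hemisphere was not removed. These correlations therefore cannot show whether same-numbered layers deviate together. With the layer number as a block, 0 members and 3 probe sets in all were called by deprivation, and SOD1 stood at -0.50 (adjusted p = 0.218, limma). The block leaves no estimate of the cell class difference or of the interaction with hemisphere. Counts over all probe sets, 7 by deprivation, 80 by cell class and 12 by hemisphere, ranged over 0 to 60, 0 to 188 and 0 to 851, that of the interaction with cell class, 0, reached 208 without the deprived layer 1 and that with hemisphere, 0, reached 3 without the deprived layer 2, and the cell class split of 33 higher and 47 lower was 17 and 14 after median centring. Precision is limited by having 12 arrays.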
